A study of Mus musculus with 9 samples.

Results

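Intergenic long noncoding RNA (lncRNA) features that lie close to a gene were examined in male mouse liver with and without a constitutively active form of STAT5b (STAT5ca). A feature was taken when the deposited table listed it as intergenic, gave it 1 interval, and placed that interval 5 kb or less from the nearest end of a named gene's span. This chose 16926 of 42910 intergenic features, in a table of 75794 features. The nearest named gene is called the neighbour, and the 16926 features have 9474 neighbours. Sharing was common: 11896 features share their neighbour with another feature, and 3880 have at least 2 named genes within 5 kb, so features are not independent of each other. By the annotated strand of the neighbour, 8530 features lie beyond the gene's end (downstream), 7405 lie before its start (upstream) and 666 overlap or touch its span, and for 325 the strand was not used.

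The STAT5ca group holds 5 libraries from male CD1 mice given adeno-associated virus serotype 8 (AAV8), which targets hepatocytes, by tail vein at 2e11 genome copies per mouse. Of these, 2 were taken 4 weeks and 3 were taken 6 weeks after injection. The Control group holds 4 libraries from male CD1 mice given vehicle, 2 at each time. Mice were 11 to 12 weeks old at 4 weeks and 13 to 14 weeks old at 6 weeks. Control mice received no virus, so an effect of the virus itself cannot be told apart from that of STAT5ca. Polyadenylated RNA from liver nuclei was sequenced, and the authors deposited 1 RPKM value per group (reads scaled by feature length and library depth), with both times pooled, so values are given without a spread unless library reads could be recovered. The labels do not say that each library is a separate mouse, so p-values may in part measure technical spread.

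STAT5 is the transcription factor through which growth hormone acts on hepatocytes, and its pulsed activity in males and more constant activity in females sets much of the sex difference in liver genes. Many RNAs arise close to genes. Some start at the promoter and run away from the gene, and some are read-through transcripts made when the polymerase passes the gene's end. Others have promoters of their own or are host transcripts of microRNAs, and a 1-interval annotation beside a gene can stand for any of these.

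Recovered library totals were 11823873 to 14863490 reads in the 5 STAT5ca libraries and 9489045 to 13144589 reads in the 4 Control libraries. Endogenous Stat5b was at 14.8 RPKM in STAT5ca livers and 15.8 RPKM in Control livers and was not called, and whether reads of the transgene would count to it is not given in the sources used here. Hepatocyte markers summed to 20945 RPKM in STAT5ca livers and 11038 RPKM in Control livers, with 1 of 7 called higher and 0 lower. The tissue thus carries its defining markers in both groups. Kupffer markers summed to 316 RPKM in STAT5ca livers and 162 RPKM in Control livers, with 2 of 5 called higher. Lymphocyte markers summed to 21.2 RPKM in STAT5ca livers and 12.6 RPKM in Control livers (0 of 5 called), neutrophil markers to 8.05 RPKM in STAT5ca livers and 4.85 RPKM in Control livers (2 of 5 higher) and cholangiocyte markers to 76.4 RPKM in STAT5ca livers and 16.9 RPKM in Control livers (1 of 5 higher, 1 lower). Endothelial markers summed to 188 RPKM in STAT5ca livers and 266 RPKM in Control livers, and stellate markers to 77.1 RPKM in STAT5ca livers and 120 RPKM in Control livers, with 2 of 5 lower in each list. Their part in the results was not tested, and in whole liver fewer cells of a type and less RNA per cell cannot be told apart.

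A single interval does not show a single exon here. All 42910 intergenic features have 1 interval, and so do 25423 of 27434 named genes, most of which have several exons. Low RPKM values are whole reads divided by a length, which gives a check. Of 9656 features with a low value above 0, all low values of 9165 (94.9%) equalled whole reads over the full interval length, and for 491 (5.08%) at least 1 low value did not. Whether reads were counted over another length in these was not tested. The features are therefore called 1-interval features. Named features of the second kind are nc_inter_c10_18328, nc_inter_c3_2937, nc_inter_c9_48872, nc_inter_c10_9183, nc_inter_c5_4499, nc_inter_c15_27246, nc_inter_c19_14769, nc_inter_c12_22919 and nc_inter_c8_6947.

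The features' own bases are not printed, but mature microRNAs are shown for the 2 higher features whose descriptions name a microRNA, with the seed (bases 2 to 8) in capitals. Sequences and coordinates are from RefSeq on GRCm38.p6.

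miR-155-5p (chr16:84714143-84714165, plus strand): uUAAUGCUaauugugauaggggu

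miR-155-3p (chr16:84714182-84714202, plus strand): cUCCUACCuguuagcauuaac

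miR-142a-3p (chr11:87756903-87756925, plus strand): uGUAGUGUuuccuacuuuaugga

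miR-142a-5p (chr11:87756867-87756887, plus strand): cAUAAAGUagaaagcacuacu

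Promoters, also from RefSeq on GRCm38.p6, are shown for 4 of 8 genes of the lists used below that changed together with a feature 500 bases or less upstream, since these windows lie at or beside the gap between the feature and the gene. Each window spans 300 bases across the gene's start, and capitals mark a match to the STAT5 motif TTCNNNGAA, which reads the same on both strands.

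Slc22a26 promoter (chr19:7802618-7802917, minus strand): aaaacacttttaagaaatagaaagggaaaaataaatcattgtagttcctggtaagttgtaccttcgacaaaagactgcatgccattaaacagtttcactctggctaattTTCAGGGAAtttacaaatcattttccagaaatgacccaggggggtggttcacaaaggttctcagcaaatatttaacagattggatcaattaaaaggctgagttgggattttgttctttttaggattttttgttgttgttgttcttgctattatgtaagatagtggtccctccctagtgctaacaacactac

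Adh1 promoter (chr3:138277335-138277634, plus strand): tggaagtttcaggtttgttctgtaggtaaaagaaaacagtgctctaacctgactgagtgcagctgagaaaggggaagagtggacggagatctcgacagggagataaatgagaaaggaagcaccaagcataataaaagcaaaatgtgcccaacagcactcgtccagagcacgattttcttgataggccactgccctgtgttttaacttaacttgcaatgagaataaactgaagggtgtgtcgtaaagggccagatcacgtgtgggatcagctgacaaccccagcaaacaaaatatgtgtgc

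Cyp2c29 promoter (chr19:39286835-39287134, plus strand): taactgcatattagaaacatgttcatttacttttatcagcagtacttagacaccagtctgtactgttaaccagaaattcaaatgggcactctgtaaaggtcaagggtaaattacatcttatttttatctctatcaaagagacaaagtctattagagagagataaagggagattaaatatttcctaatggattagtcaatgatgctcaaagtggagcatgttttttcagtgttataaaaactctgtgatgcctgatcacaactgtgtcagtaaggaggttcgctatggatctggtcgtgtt

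Cyp2e1 promoter (chr7:140763569-140763868, plus strand): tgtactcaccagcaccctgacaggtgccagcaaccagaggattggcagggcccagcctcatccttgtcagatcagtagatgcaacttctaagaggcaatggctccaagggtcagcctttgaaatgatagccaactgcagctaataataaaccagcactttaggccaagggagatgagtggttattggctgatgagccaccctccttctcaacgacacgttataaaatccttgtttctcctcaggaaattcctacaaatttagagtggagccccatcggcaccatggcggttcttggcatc

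Of these 4 windows the Slc22a26 window holds a match. The others of the 8 genes are Trim24, which has 2 windows without a match, and Socs2, Usp18 and Cyp2u1. For Socs2, Usp18 and Cyp2u1 no promoter sequence was available, so they were not searched for the motif. Of 15 genes that were higher with a higher feature 500 bases or less upstream, 9 had a promoter sequence, and 1 of the 9 holds the motif (11.1%). Of 12 genes that were lower with such a lower feature, 10 had a promoter sequence, and 0 of the 10 hold it. Over all 27025 genes with a promoter sequence, 2582 hold it (9.55%). A match is only a run of letters in this window.

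The features were faint. The median was 0.0184 RPKM in STAT5ca livers and 0.0153 RPKM in Control livers, 5999 features (35.4%) were at 0 in both groups, 4470 (26.4%) had a mean of both groups of at least 0.1 RPKM, and 57 had at least 5 RPKM. The level depended on the side of the gene. Of 3143 features 1 to 500 bases upstream of a gene, 1476 (47.0%) reached 0.1 RPKM and 17.8% were at 0 in both groups. Of 2565 features 1 to 500 bases downstream, 533 (20.8%) reached 0.1 RPKM and 43.3% were at 0. Beyond 2000 bases the sides were close, with 22.2% of upstream and 19.7% of downstream features at 0.1 RPKM or more. The features nearest to a gene's start were thus the most often detected, and the features nearest to a gene's end were no more often detected than those farther away. Features 1 to 500 bases away were also longer, with a median of 1530 bases upstream and 1455 bases downstream, against 931 and 1015.5 bases beyond 2000 bases.

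**Figure D1:**
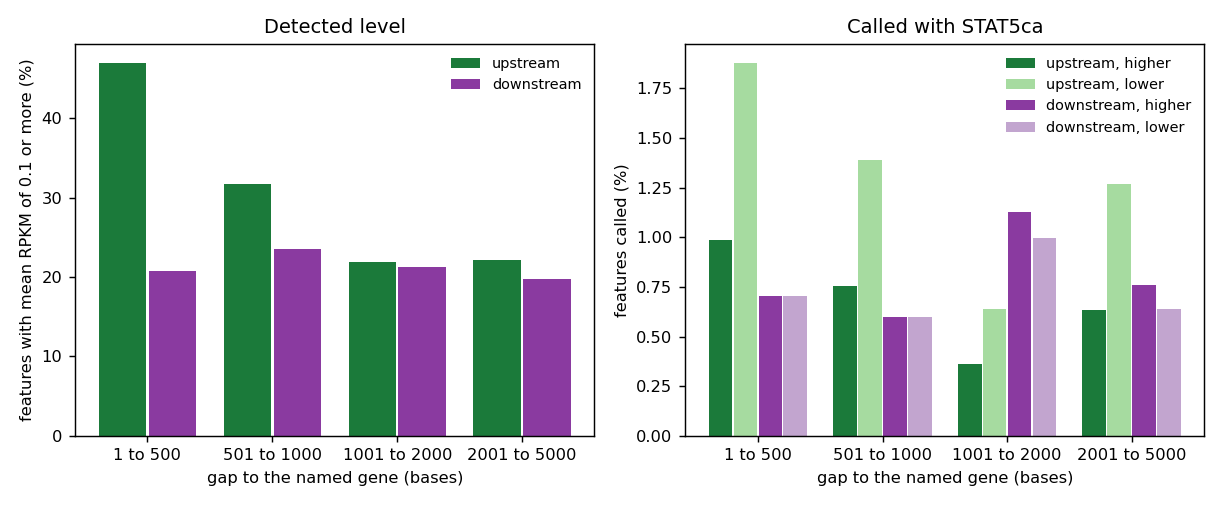
Left, the percentage of 1-interval intergenic features whose mean reached 0.1 RPKM, by side and by gap to the neighbour gene in bases. Right, the percentage called higher or lower with STAT5ca in the authors' deposited table; upstream features 1 to 500 bases away have the tallest bars for detection (47.0%) and for lower calls (1.88%).

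Features stood far below their neighbours. On the log2(RPKM + 0.1) scale the median difference, feature minus neighbour, was -4.92 in STAT5ca livers and -4.72 in Control livers over all 16926 features, with the many features at 0 included. Where the neighbour had a mean of at least 1 RPKM (12374 features), the feature's level was a median of 0.228% of the neighbour's in STAT5ca livers and 0.202% in Control livers. Only 20 features in STAT5ca livers and 25 in Control livers exceeded such a neighbour. At 1 to 500 bases upstream the median was 0.753% of the neighbour's level in STAT5ca livers and 0.881% in Control livers, and the 90th percentile was 7.15% in STAT5ca livers and 8.41% in Control livers. At 1 to 500 bases downstream the median was 0.0161% in STAT5ca livers and 0 in Control livers, and the 90th percentile was 2.73% in STAT5ca livers and 3.09% in Control livers. Downstream, the class nearest to the gene's end had the lowest median: beyond 500 and up to 1000 bases the median was 0.227% in STAT5ca livers and 0.220% in Control livers, and beyond 2000 bases it was 0.131% in STAT5ca livers and 0.0634% in Control livers.

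**Figure D2:**
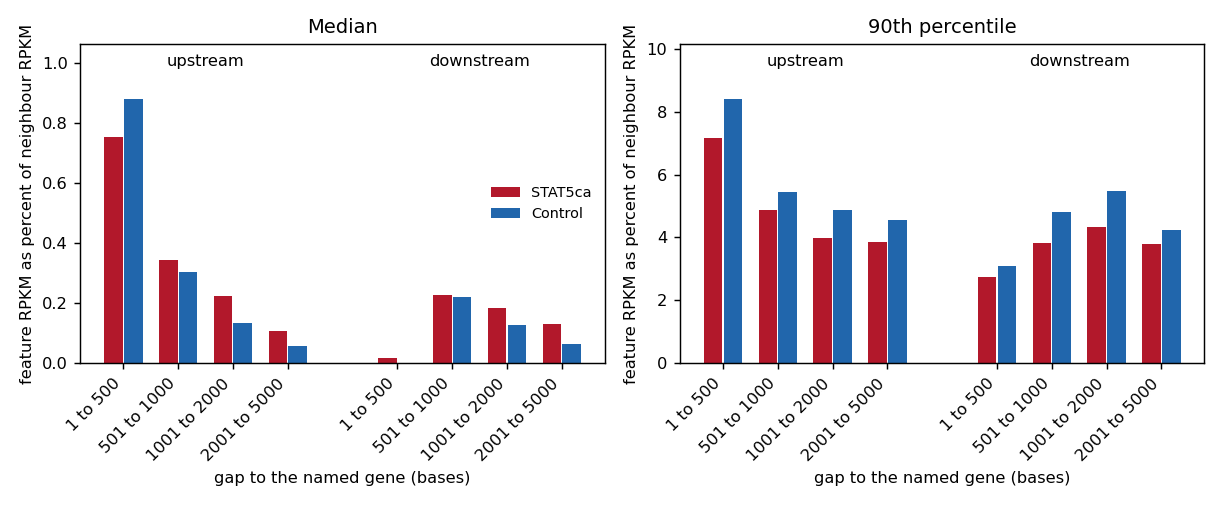
Level of each feature as a percentage of its neighbour gene's RPKM (neighbours with a mean of at least 1 RPKM), by side and gap in bases, as median (left) and 90th percentile (right), with STAT5ca in red beside Control in blue. In both groups the nearest class has the highest median upstream (0.753% and 0.881%) and the lowest downstream (0.0161% and 0).

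In the authors' deposited table, at an adjusted p (edgeR) under 0.05, 150 of the 16926 features were higher with STAT5ca (0.886%) and 176 were lower (1.04%). Over all 75794 features 2.34% were higher and 1.49% lower, over named genes 3.87% and 1.92%, and over the 25984 intergenic features more than 5 kb from a gene 1.67% and 0.981%. Split by distance, intergenic features more than 5 kb and up to 20 kb from a gene had 1.16% higher and 1.2% lower, those beyond 20 kb had 2.06% and 0.819%, and all intergenic features together had 1.36% and 1%. The share called higher among features near genes was below each of these shares, a description with no test. These shares move with level: among features of at least 5 RPKM, 3 of 57 were higher and 9 lower, and under 0.1 RPKM 30 of 12456 were higher and 19 lower. Upstream features account for most of the lower calls, with 107 of 7405 lower (1.44%) and 56 higher (0.756%). Downstream, 61 of 8530 were lower (0.715%) and 67 higher (0.785%). Of the 666 features that overlap a gene span, 6 were lower (0.901%) and 23 higher (3.45%). The sides also differ in detection, with 33.7% of upstream, 20.8% of downstream and 18% of overlapping features at 0.1 RPKM or more.

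Rises were larger than falls. The median fold of the 150 higher features was 6.45 in the authors' deposited table, or 5.36 when the 35 features at 0 in Control were set at the lowest fold that a floor of 3 reads over the Control group allows. The 176 lower features had a median fold of 2.88 in the authors' deposited table. Among the 4470 features with a mean of at least 0.1 RPKM, most had a fold slightly below 0 on the log2 scale. Their median log2 fold was -0.20 and 40.6% were above 0. With the same filter the values were 0.03 and 52.8% for named genes and -0.27 and 35.1% for antisense features. For intergenic features more than 5 kb from a gene they were -0.03 and 49.2%. That filter uses the compared values themselves, so these medians are a description only.

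By the calls, each called feature had a neighbour that was called the same way or was not called. A neighbour that was not called could still have a fold in the other direction. Of the 150 higher features 61 (40.7%) lay beside a gene called higher, of the 176 lower features 31 (17.6%) lay beside a gene called lower, and 0 lay beside a gene called in the opposite direction. Read from the gene's side, 61 of 1034 features beside a higher gene were higher (5.90%), 31 of 506 beside a lower gene were lower (6.13%), and of 15386 beside a gene that was not called 89 were higher (0.578%) and 145 were lower (0.942%). So, counted at any level, most features beside a changed gene did not pass the test, and most changed features lay beside a gene that did not pass. The first share moved with level. Where feature and gene both reached 0.1 RPKM, 21.9% of 242 features beside a higher gene were higher and 18.8% of 160 beside a lower gene were lower. Beside a gene that was not called, 1.14% were higher and 3.01% lower at that level. Where both reached 1 RPKM, 10 of 22 beside a higher gene were higher and 9 of 18 beside a lower gene were lower. Feature and neighbour were measured in the same libraries, and whether the counting used strand is not given, so reads of the gene on either strand could count to a feature that touches it.

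**Figure D3:**
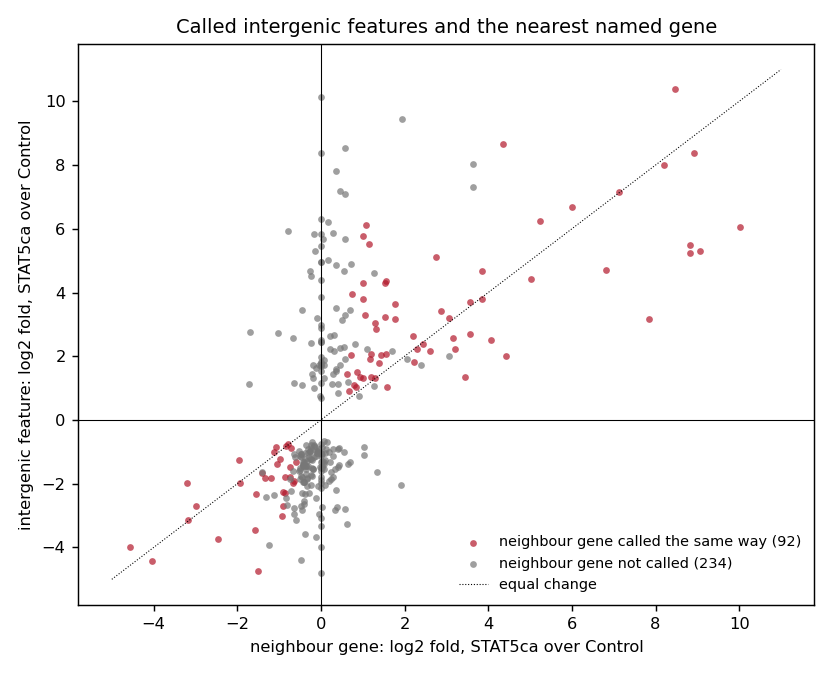
Each point is 1 of the 326 called features, with the log2 fold of the neighbour gene on the x axis and of the feature on the y axis, both STAT5ca over Control from the authors' deposited table (fitted values, also where a group is at 0). The 92 features whose neighbour was called (red) all lie in the upper right or lower left, and the 234 others (grey) form a column near 0 on the x axis.

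In the 61 pairs that rose, the median log2 fold was 3.18 for the feature (2.71 with features at 0 set at their floor) and 2.20 for the neighbour. With the floor applied, 31 features changed by an amount within 2-fold of their neighbour's change, 18 by more and 12 by less. In the 31 pairs that fell, the medians were -1.92 for the feature and -1.08 for the neighbour, with 21 within 2-fold, 9 larger and 1 smaller. These pairs were chosen because both were called, so the order of these medians does not hold for features in general. Where both reached 0.1 RPKM, the 242 features beside a higher gene, called or not, had a median of 0.60, against 1.19 for their neighbours. For the 160 beside a lower gene the medians were -0.57 for the feature and -0.82 for the neighbour. Beside a higher gene, and at 0.1 RPKM or more, downstream features had a median log2 fold of 0.91 (0.89 with floors; 116 features) and upstream features 0.34 (0.33 with floors; 118 features), and beside a lower gene the medians were -0.60 (56 downstream) and -0.54 (100 upstream). Across 4091 features where both feature and neighbour reached 0.1 RPKM, Spearman's rho between their log2 folds was 0.241, and it was 0.479 over the 347 where both reached 1 RPKM. The points share libraries and many share a neighbour. Looking wider, 89 of 150 higher features (59.3%) had a higher gene within 100 kb and 56 of 176 lower features (31.8%) had a lower one, against 19.7% and 12.7% of all features. These counts include the 61 and 31 pairs above. Where the neighbour was not called, 28 of 89 higher features (31.5%) had a higher gene within 100 kb and 25 of 145 lower features (17.2%) a lower one. Of features not called, at 0.1 RPKM or more and with any neighbour, 18.9% had a higher gene and 14.3% a lower one.

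The neighbours were grouped by role. For comparison with the shares in each group, 5.90% of features beside any higher gene were higher and 6.13% beside any lower gene were lower. Over all features near genes, 0.886% were higher and 1.04% lower. Of 15 genes of growth hormone signalling that were measured, 6 were higher and 1 lower. Of their 32 features, of which 10 lay beside a higher gene, 3 were higher (9.38%) and 0 lower. Socs2, a feedback inhibitor of growth hormone signalling and a known STAT5 target, was at 98.5 RPKM in STAT5ca livers and 6.49 RPKM in Control livers, and it had a called feature on each side. Upstream, nc_inter_c10_9183 (5730420D15Rik; mm9 chr10:94879873-94893841, 381 bases from the gene) was at 1.28 RPKM in STAT5ca livers and 0.0483 RPKM in Control livers, a 25.6-fold rise with an adjusted p of 1.0e-29 in the authors' deposited table. Downstream, nc_inter_c10_9181 (mm9 chr10:94861667-94870944, 3180 bases away) was at 0.876 RPKM in STAT5ca livers and 0.0596 RPKM in Control livers, and its 25 Control reads were spread as 7, 4, 6 and 8 over the libraries. Gene and both features thus rose 13.7-fold to 25.6-fold in the authors' deposited table, with the gene at 14.3-fold. Beside Onecut1, which encodes the liver transcription factor HNF6, nc_inter_c9_8104 (Gm16551; mm9 chr9:74688205-74707524, 2204 bases upstream) was at 4.83 RPKM in STAT5ca livers and 0.980 RPKM in Control livers and rose 4.71-fold in the authors' deposited table. Onecut1 itself was at 12.6 RPKM in STAT5ca livers and 5.64 RPKM in Control livers and did not pass (adjusted p = 0.242 in the authors' deposited table).

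Among 58 listed genes that are more expressed in female liver, 35 were higher and 0 lower, and 36 of the 58 are neighbours of a feature. Of their 83 features, of which 41 lay beside a higher gene, 9 were higher (10.8%), 0 were lower and 43 were at 0 in both groups. Many of these genes went up by orders of magnitude while the features stayed faint. A1bg, a plasma glycoprotein gene, was at 591 RPKM in STAT5ca livers and 1.16 RPKM in Control livers, and nc_inter_c15_12592 (mm9 chr15:60740512-60745792, 3352 bases downstream) was at 0.627 RPKM in STAT5ca livers and 0 in Control livers, at least 41.9-fold higher. Cyp3a16, a cytochrome P450, was at 41.4 RPKM in STAT5ca livers and 0.280 RPKM in Control livers, and nc_inter_c5_41475 (mm9 chr5:146196478-146196799, 379 bases downstream) was at 4.35 RPKM in STAT5ca livers and 0 in Control livers, at least 17.7-fold higher. This feature stood at 10.5% of its gene in STAT5ca livers, against 0.106% for the A1bg feature.

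Of the remaining features of that group, 3 had reads that could be recovered in every library. nc_inter_c7_6006, 4855 bases upstream of Cyp2a4, a steroid hydroxylase, had 1, 9, 5, 3 and 13 reads in the STAT5ca libraries and 0 in each of the 4 Control libraries. nc_inter_c10_18315, 947 bases upstream of the sulfotransferase Sult3a2, had 1, 12, 3, 4 and 6 reads in the STAT5ca libraries and 0 in each Control library. nc_inter_c3_36565, 3254 bases downstream of the hydroxyacid oxidase Hao2, had 6, 1, 3, 3 and 4 reads in the STAT5ca libraries and 0 in each Control library. In all 3 the groups do not overlap (exact two-sided permutation test, p = 0.0159, the smallest that 5 against 4 libraries allow), with at least 5.43-fold, 4.59-fold and 3.19-fold higher levels. Trim24, a transcriptional cofactor, was at 13.6 RPKM in STAT5ca livers and 4.37 RPKM in Control livers and had 2 called features: nc_inter_c6_42054 began 8 bases upstream and was at 0.856 RPKM in STAT5ca livers and 0.0264 RPKM in Control livers, where it had 1 read (ratio 32.4, counting interval 5.81 to 1279). nc_inter_c6_42056, 1764 bases downstream, was at 0.324 RPKM in STAT5ca livers and 0.0690 RPKM in Control livers. Slc22a26, an organic anion transporter whose promoter is shown above, was at 11.5 RPKM in STAT5ca livers and 0.0462 RPKM in Control livers, while the 34066-base nc_inter_c19_14769, which lies 57 bases upstream, was at 0.109 RPKM in STAT5ca livers and 0.0113 RPKM in Control livers. Cyp2a4, Cyp3a16 and Sult3a2 have near-identical paralogs, so their own levels are uncertain.

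**Figure D4:**
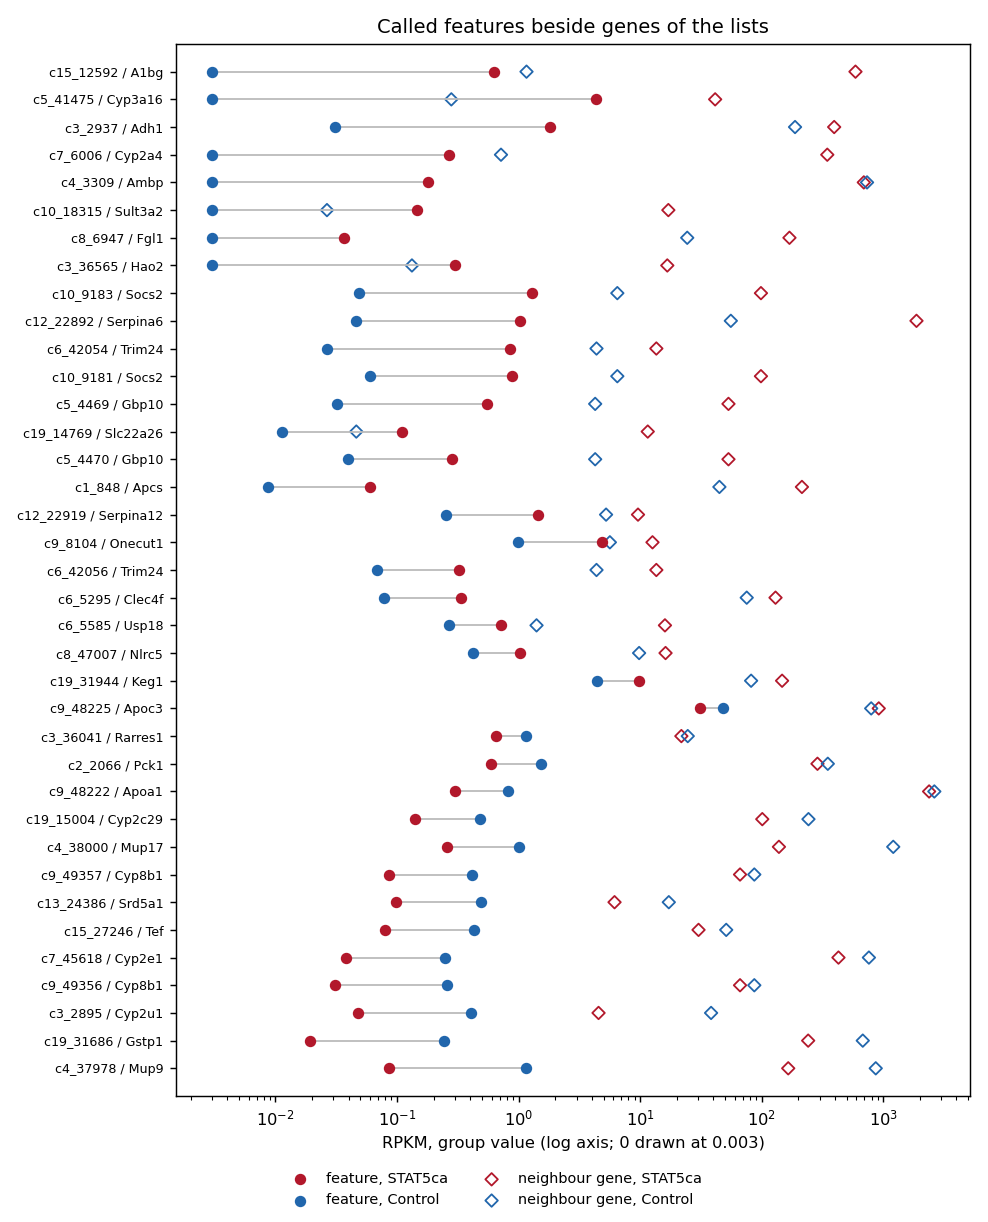
RPKM of called features (filled circles) and their neighbour genes (open diamonds) for reported genes of the lists, on a log axis with values of 0 at the left edge, STAT5ca in red and Control in blue. Features are ordered by log2 fold, and 0 of the features reach the level of their neighbour in the same group.

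Of 51 genes more expressed in male liver 19 were lower and 2 higher. Of their 75 features 19 lay beside a lower gene and 2 beside a higher gene. Of the 75, 6 were lower (8.00%) and 2 higher (2.67%). The 26 of these features at 0.1 RPKM or more had a median log2 fold of -0.50, against -0.20 over all features near genes at that level. Cyp2u1, a cytochrome P450, was at 4.55 RPKM in STAT5ca livers and 38.3 RPKM in Control livers, and nc_inter_c3_2895 (4930534D22Rik; mm9 chr3:131006159-131019558, 13 bases upstream) was at 0.0481 RPKM in STAT5ca livers and 0.407 RPKM in Control livers, so both fell about as far, 9.04-fold for the gene and 8.80-fold for the feature in the authors' deposited table. Beside Gstp1, a glutathione transferase with a near-identical paralog, nc_inter_c19_31686 had 0, 1, 1, 2 and 0 reads in the STAT5ca libraries and 7, 10, 8 and 6 reads in the Control libraries. Beside Srd5a1, a steroid reductase, nc_inter_c13_24386 had 2, 2, 5, 1 and 0 reads in the STAT5ca libraries and 7, 7, 8 and 11 reads in the Control libraries. Both lie downstream, 112 and 265 bases from their gene, and neither overlaps between groups (exact two-sided permutation test, p = 0.0159 for each). The genes fell 2.99-fold and 2.94-fold and these features 11.0-fold and 5.02-fold in the authors' deposited table.

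Cyp8b1, the sterol hydroxylase that sets the type of bile acid made, did not pass the test, at 66.3 RPKM in STAT5ca livers and 86.9 RPKM in Control livers, but both of its called upstream features were lower: nc_inter_c9_49357 was at 0.0866 RPKM in STAT5ca livers and 0.417 RPKM in Control livers, and nc_inter_c9_49356 at 0.0310 RPKM in STAT5ca livers and 0.259 RPKM in Control livers. The libraries of nc_inter_c9_49356 overlap, with 0, 2, 0, 1 and 0 reads in STAT5ca and 4, 8, 1 and 2 reads in Control (exact two-sided permutation test, p = 0.0317). The rises were nc_inter_c19_31944, 854 bases downstream of Keg1, at 9.77 RPKM in STAT5ca livers and 4.38 RPKM in Control livers, with Keg1 at 147 RPKM in STAT5ca livers and 81.8 RPKM in Control livers, and nc_inter_c12_22919, 148 bases upstream of the adipokine gene Serpina12, at 1.43 RPKM in STAT5ca livers and 0.255 RPKM in Control livers. Serpina12 did not pass (9.60 RPKM in STAT5ca livers and 5.24 RPKM in Control livers), but another gene within 100 kb of the feature was called higher. Of the major urinary protein genes, male pheromone carriers, 18 of 21 were lower, and 2 of their 18 features were (11.1%). Mup9 was at 165 RPKM in STAT5ca livers and 867 RPKM in Control livers, and nc_inter_c4_37978 (mm9 chr4:60435686-60438142, 861 bases upstream) was at 0.0859 RPKM in STAT5ca livers and 1.14 RPKM in Control livers. The second lies 2511 bases upstream of Mup17, nc_inter_c4_38000, at 0.258 RPKM in STAT5ca livers and 1.00 RPKM in Control livers. These genes are near-identical copies, and reads could be split among them.

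Of 66 interferon response genes 60 were higher and 1 lower, and 54 of their 64 features lay beside a higher gene. Of all 64 features 4 were higher (6.25%) and 0 lower. That share counts features beside any gene of the list, while the 5.90% given above covers only features beside a higher gene. The 25 of these features at 0.1 RPKM or more had a median log2 fold of 0.08. Usp18, the protease that removes ISG15, was at 16.0 RPKM in STAT5ca livers and 1.40 RPKM in Control livers, while nc_inter_c6_5585, 95 bases upstream, was at 0.720 RPKM in STAT5ca livers and 0.266 RPKM in Control livers. The gene rose 10.8-fold and the feature 2.57-fold in the authors' deposited table. Gbp10, a guanylate-binding protein with close paralogs, was at 53.3 RPKM in STAT5ca livers and 4.26 RPKM in Control livers and had 2 called features downstream, of which nc_inter_c5_4470 had 4, 3, 9, 8 and 12 reads in the STAT5ca libraries and 1, 1, 1 and 0 in the Control libraries, without overlap. Its ratio was 7.23 with a counting interval of 2.47 to 35.0, and that of nc_inter_c5_4469 was 17.2 with an interval of 4.76 to 142 on 2 Control reads. Beside Nlrc5, which activates MHC class I genes, nc_inter_c8_47007 was at 1.03 RPKM in STAT5ca livers and 0.422 RPKM in Control livers while the gene did not pass (16.2 RPKM in STAT5ca livers and 9.80 RPKM in Control livers). Of 31 cell cycle genes 16 were higher. Of their 55 features, of which 21 lay beside a higher gene and 6 reached 0.1 RPKM, 0 were higher and 0 lower in the authors' deposited table (edgeR, adjusted p). Unadjusted p-values were not used for these calls.

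Metabolic enzymes of hepatocytes were mixed, with 5 of 61 genes higher and 8 lower, and 1 of their 118 features higher (0.847%, near the 0.886% of all features near genes) and 3 lower (2.54%). Adh1, the alcohol dehydrogenase, was at 394 RPKM in STAT5ca livers and 188 RPKM in Control livers, a 2.00-fold rise in the authors' deposited table. The 16563-base nc_inter_c3_2937 (mm9 chr3:137923914-137940476, 73 bases upstream) was at 1.82 RPKM in STAT5ca livers and 0.0311 RPKM in Control livers, a 54.7-fold rise in the authors' deposited table, far more than the gene's. Cyp2c29 and Cyp2e1, cytochromes P450 whose promoters are shown above, fell together with their upstream features. Cyp2c29 was at 101 RPKM in STAT5ca livers and 242 RPKM in Control livers, and nc_inter_c19_15004 was at 0.141 RPKM in STAT5ca livers and 0.477 RPKM in Control livers. Cyp2e1 was at 428 RPKM in STAT5ca livers and 762 RPKM in Control livers, and nc_inter_c7_45618 had 1, 1, 7, 0 and 0 reads in the STAT5ca libraries and 4, 10, 10 and 16 reads in the Control libraries, which overlap because of the third STAT5ca library (exact two-sided permutation test, p = 0.0317). Beside Pck1, the gluconeogenic carboxykinase, nc_inter_c2_2066 was at 0.593 RPKM in STAT5ca livers and 1.53 RPKM in Control livers while the gene did not pass.

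Of 77 genes for plasma and acute phase proteins 15 were higher and 3 lower. Of their 136 features, 27 lay beside a higher gene and 4 beside a lower gene. Of the 136, 4 were higher (2.94%) and 2 lower (1.47%), against 0.886% and 1.04% of all features near genes. Serpina6, the corticosteroid-binding globulin, was at 1875 RPKM in STAT5ca livers and 55.7 RPKM in Control livers, and nc_inter_c12_22892, 649 bases downstream, was at 1.03 RPKM in STAT5ca livers and 0.0462 RPKM in Control livers. In the authors' deposited table the gene rose 32.7-fold and the feature 21.4-fold. The Ambp feature rose beside a gene that did not: nc_inter_c4_3309 had 4, 5, 5, 5 and 8 reads in the STAT5ca libraries and 0 in each Control library, without overlap, while Ambp, the precursor of a protease inhibitor, was at 692 RPKM in STAT5ca livers and 735 RPKM in Control livers. Another gene within 100 kb of this feature was called higher. The rises beside Apcs and Fgl1 were of features under 0.07 RPKM in both groups. Beside the apolipoprotein genes, nc_inter_c9_48222 lay 2 bases upstream of Apoa1 at 0.302 RPKM in STAT5ca livers and 0.818 RPKM in Control livers, and nc_inter_c9_48225 lay 578 bases downstream of Apoc3 at 31.2 RPKM in STAT5ca livers and 47.9 RPKM in Control livers. Neither gene passed. Of the circadian clock genes 5 of 19 were lower, and 7 of their 27 features lay beside a lower gene. Of the 27 features 1 was lower (3.7%), nc_inter_c15_27246 beside Tef, at 0.0803 RPKM in STAT5ca livers and 0.431 RPKM in Control livers. Tef itself did not pass, at 30.2 RPKM in STAT5ca livers and 51.0 RPKM in Control livers (adjusted p 0.12 in the authors' deposited table). Beside Clec4f, a Kupffer cell marker that was at 130 RPKM in STAT5ca livers and 75.3 RPKM in Control livers, nc_inter_c6_5295 was at 0.336 RPKM in STAT5ca livers and 0.0781 RPKM in Control livers.

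**Figure D5:**
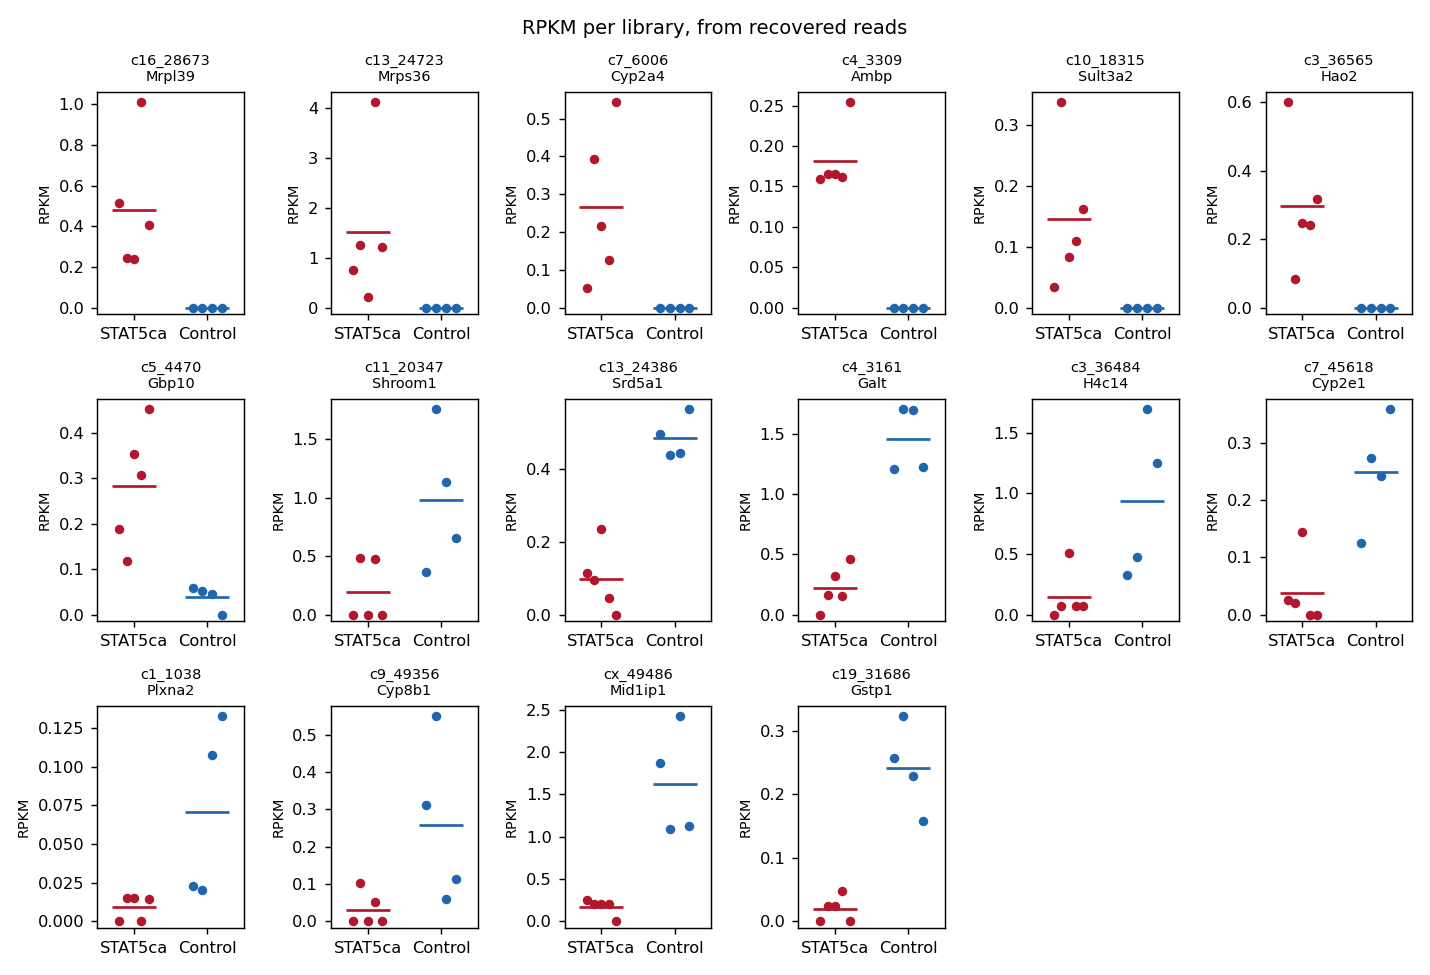
RPKM in each library, from recovered reads, for the 16 called and named features whose reads could be recovered in both groups, each titled with its neighbour gene and with a line at the group mean (5 STAT5ca libraries left in red, 4 Control libraries right in blue). Points are in order of library depth, and the features beside Shroom1, H4c14, Cyp2e1 and Cyp8b1 are those whose groups overlap.

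The largest rises outside these groups began with nc_inter_c10_18328 (mm9 chr10:33614063-33624483), which was at 7.34 RPKM in STAT5ca livers and 0.00425 RPKM in Control livers (adjusted p = 5.3e-52 in the authors' deposited table). This feature is among those named above with a low value that did not equal whole reads. Its Control reads could not be recovered, so no counting interval is given. It lies 434 bases upstream of Rsph4a, which encodes a part of the radial spokes of motile cilia and was at 3.22 RPKM in STAT5ca livers and 0.00564 RPKM in Control livers, so this feature was higher than its gene in STAT5ca livers. nc_inter_c11_21214 was at 2.03 RPKM in STAT5ca livers and 0 in Control livers, at least 31.7-fold higher, 554 bases upstream of Krtap4-16, a hair keratin-associated gene at 3.06 RPKM in STAT5ca livers and 0 in Control livers. nc_inter_c7_45325, 2472 bases downstream of Tmc5, was at 1.87 RPKM in STAT5ca livers and 0.0162 RPKM in Control livers, a ratio of 116 with a counting interval of 32.0 to 954 on 2 Control reads. Tmc5 was at 8.62 RPKM in STAT5ca livers and 0.125 RPKM in Control livers.

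Other large rises had a nearest gene that was not called. Of these features, nc_inter_c12_10849, nc_inter_c17_13583 and nc_inter_c13_24723 did have another gene called higher within 100 kb, and nc_inter_cx_49711 and nc_inter_c9_48872 did not. nc_inter_cx_49711 (mm9 chrX:36070347-36071014) was at 4.92 RPKM in STAT5ca livers and 0 in Control livers, at least 41.6-fold higher, and overlaps the span of Gm14565, which was at 0 in both groups. nc_inter_c12_10849, 776 bases downstream of Serpina1f, was at 1.86 RPKM in STAT5ca livers and 0 in Control livers, at least 46.6-fold higher, with Serpina1f at 0.0348 RPKM in STAT5ca livers and 0.0241 RPKM in Control livers. nc_inter_c17_13583 (Gm29050), 18 bases downstream of Tmem242, was at 1.97 RPKM in STAT5ca livers and 0 in Control livers, at least 18.4-fold higher, and nc_inter_c9_48872, 282 bases downstream of Snx14, was at 1.28 RPKM in STAT5ca livers and 0.0199 RPKM in Control livers. Tmem242 was at 10.7 RPKM in STAT5ca livers and 7.41 RPKM in Control livers and Snx14 at 7.00 RPKM in STAT5ca livers and 6.43 RPKM in Control livers. These features lay immediately beyond the end of expressed genes and were at or near 0 in Control livers, with each at 18.3% of the gene's level in STAT5ca livers, against 0 and 0.310% in Control livers. nc_inter_c13_24723, 755 bases upstream of Mrps36, had 3, 6, 1, 20 and 6 reads in the STAT5ca libraries and 0 in each Control library, so 1 library held 20 of 36 reads.

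Among the largest falls, 10 of 12 lay beside a gene that was not called, near the share of all lower features (145 of 176, 82.4%). Of all 16926 features, 15386 lay beside such a gene. nc_inter_c11_21665 (mm9 chr11:121171230-121182012), 15 bases downstream of the forkhead gene Foxk2, was at 0.302 RPKM in STAT5ca livers and 4.55 RPKM in Control livers, a 15.9-fold fall in the authors' deposited table, while Foxk2 was at 8.48 RPKM in STAT5ca livers and 8.00 RPKM in Control livers. The feature thus stood at 3.55% of its gene in STAT5ca livers and 56.8% in Control livers. nc_inter_c10_9024, 87 bases downstream of the folate enzyme gene Ftcd, was at 1.02 RPKM in STAT5ca livers and 6.24 RPKM in Control livers, with Ftcd at 474 RPKM in STAT5ca livers and 629 RPKM in Control livers. nc_inter_c5_4499 (Gm10419) was at 0.0742 RPKM in STAT5ca livers and 1.09 RPKM in Control livers beside Gm42517, which was below 0.08 RPKM in both groups.

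Library reads of the falls were uneven in part. nc_inter_c4_3161, 3825 bases upstream of Galt, the galactose enzyme, had 0, 1, 2, 1 and 3 reads in the STAT5ca libraries and 5, 8, 9 and 7 reads in the Control libraries, without overlap. nc_inter_cx_49486, upstream of Mid1ip1, had 1, 1, 1, 1 and 0 reads in the STAT5ca libraries and 6, 4, 10 and 5 reads in the Control libraries, also without overlap (exact two-sided permutation test, p = 0.0159 for each). nc_inter_c3_36484, beside the histone gene H4c14, had 0, 1, 7, 1 and 1 reads in the STAT5ca libraries and 3, 5, 20 and 16 reads in the Control libraries, and nc_inter_c11_20347, beside Shroom1, had 0, 4, 0, 4 and 0 reads in the STAT5ca libraries and 2, 11, 8 and 5 reads in the Control libraries. Both of these overlap (exact two-sided permutation test, p = 0.0476 for each). H4c14, at 0.117 RPKM in STAT5ca livers and 1.01 RPKM in Control livers, was called lower too. For nc_inter_c13_24684 the STAT5ca reads were 0, 3, 0, 0 and 0, against a Control value of 3.15 RPKM, and for nc_inter_c7_43795 they were 0, 9, 2, 0 and 0, against a Control value of 2.22 RPKM. The remaining falls, nc_inter_c2_33026 beside Lcn12 and nc_inter_c7_43873 beside Sult2a8, were at 0.190 and 0.315 RPKM in STAT5ca livers, against 0.942 and 1.49 RPKM in Control livers.

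Of the 6 most abundant features 2 were called, both lower. nc_inter_c2_33077 (mm9 chr2:26697385-26697853) was at 151 RPKM in STAT5ca livers and 159 RPKM in Control livers, 170 bases downstream of Abo, which was at 0.00786 RPKM in STAT5ca livers and 0 in Control livers. nc_inter_c1_17255, 147 bases downstream of the antithrombin gene Serpinc1, was at 88.3 RPKM in STAT5ca livers and 55.8 RPKM in Control livers and did not pass (adjusted p = 0.108 in the authors' deposited table), and stood at 16.9% of the gene in STAT5ca livers and 13.9% in Control livers. nc_inter_c14_25238, 210 bases downstream of Itih1, was at 53.4 RPKM in STAT5ca livers and 43.5 RPKM in Control livers. Upstream of Cyp2d37-ps, which has close paralogs, nc_inter_c15_12778 was at 54.4 RPKM in STAT5ca livers and 84.3 RPKM in Control livers and was called lower, and nc_inter_c15_12777 was at 35.1 RPKM in STAT5ca livers and 45.7 RPKM in Control livers and did not pass. The 6 most abundant called features with an uncalled neighbour were all lower. They were chosen by level, and lower calls were the more common at higher levels. Where a feature and an uncalled neighbour both reached 1 RPKM, 29 of 307 features were lower and 6 higher. Besides nc_inter_c15_12778 and nc_inter_c9_48225 the 6 most abundant are nc_inter_c17_13889 beside H2-Q10 (10.7 RPKM in STAT5ca livers and 24.3 RPKM in Control livers), nc_inter_c8_46980 beside the carboxylesterase gene Ces1f (6.73 RPKM in STAT5ca livers and 14.9 RPKM in Control livers), nc_inter_c10_8999 (C730027H18Rik) beside Bicc1 (4.90 RPKM in STAT5ca livers and 11.6 RPKM in Control livers) and nc_inter_c9_49314 beside Slc25a38 (3.62 RPKM in STAT5ca livers and 12.8 RPKM in Control livers).

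The called features whose descriptions name a microRNA were picked out after their values were seen. nc_inter_c16_28673 (Mir155hg; mm9 chr16:84714386-84715541), the host of miR-155, which is known from immune cells, was at 0.483 RPKM in STAT5ca livers and 0 in Control livers. Its reads were 7, 4, 4, 17 and 7 in the STAT5ca libraries and 0 in each of the 4 Control libraries, without overlap, at least 7.06-fold higher (exact two-sided permutation test, p = 0.0159). nc_inter_c11_20997 (mm9 chr11:87568949-87573924), the host of miR-142a, which is known from blood cells, was at 1.91 RPKM in STAT5ca livers and 1.06 RPKM in Control livers, a 1.70-fold rise in the authors' deposited table (adjusted p = 0.0391). The 4 mature sequences above share no seed. The sums of Kupffer, lymphocyte and neutrophil markers given above were higher in STAT5ca livers too, and their part in these rises was not tested. The features that hold Mir3962, Mir12186 and Mir187 were lower. nc_inter_c1_1038 (Mir3962) had 0, 1, 1, 0 and 1 reads in the STAT5ca libraries and 1, 1, 6 and 8 reads in the Control libraries, so that 2 Control libraries hold most of its reads. nc_inter_c15_12790 (Mir12186) was at 0.562 RPKM in STAT5ca livers and 1.47 RPKM in Control livers, and nc_inter_c18_14356 (Mir187) at 0.0240 RPKM in STAT5ca livers and 0.0649 RPKM in Control livers. These are levels of the host interval, and mature microRNAs were not measured.

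Reads per library could be set beside the calls for faint features only. Of 2707 features with 10 to 40 recovered reads, the STAT5ca libraries were all above the Control libraries in 47 (1.74%) and all below them in 71 (2.62%). Over all 5981 1-interval lncRNA features with so many reads, these shares were 2.76% and 2.52%. Of the called features, 19 higher and 43 lower ones had library reads that could be recovered in both groups (0 reads included), and the groups did not overlap in 16 of the 19 and in 30 of the 43. The calls were made on the same libraries, so this choice of features favours groups that do not overlap. The counts are thus no separate support for the calls. The exact tests given above were also run on called features and add no separate support. In 1 of the 19 and in 4 of the 43, 1 library held more than 50% of the reads of the higher group. At the 5 kb limit, the 3 features just inside (nc_inter_c8_47064, nc_inter_c17_29081 and nc_inter_c18_31330) had 2, 0 and 0 reads in the STAT5ca libraries and 0 in the Control libraries. The 3 just outside (nc_inter_c18_30975, nc_inter_c8_47485 and nc_inter_c11_21632) had 1, 4 and 4 reads in the STAT5ca libraries, against 2, 0 and 2 in the Control libraries.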

How the data were processed

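Polyadenylated RNA of liver nuclei was sequenced in 5 STAT5ca and 4 Control libraries. Per the submitters' processing notes, STAR, featureCounts and edgeR were used on mm9; their versions, strand setting and RPKM denominator were not stated there. The authors deposited 1 RPKM value per group and feature, a signed fold change (STAT5ca over Control, a score here) and an adjusted p-value, per the file headers. Count tables were not used. A feature was called at the authors' adjusted p-value under 0.05.

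Gaps to named gene spans were computed in Python 3.11.15 with pandas 2.3.3, numpy 2.4.6 and scipy 1.17.1. Side came from the GENCODE strand (GRCm38) of 25911 genes matched by symbol with local gene order kept, and no coordinates were carried between builds. Intervals are printed in mm9, counted from 1. Levels were compared as log2(RPKM + 0.1). Library reads were recovered from low RPKM values as whole reads averaged over the libraries: in the features, 93.6% of 7925 low STAT5ca values and 94.9% of 7866 low Control values had a single solution, against at most 1.25% and 0.292% with any solution when the length was shifted by 1 to 3 bases. The method was tested on simulated data. Libraries are in order of depth, not tied to labels or times. Floors are 3 reads over the Control group at its shallowest library, over the interval length, and ratio intervals (95%, exact Poisson) cover counting error of the smaller group only.

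The rule for named features took the 12 largest rises and 12 largest falls with a mean of at least 0.5 RPKM, the 6 highest levels, the 6 highest called features with an uncalled neighbour, the 3 on each side of the 5 kb limit, and called features beside listed genes; opposite calls and genes with 3 or more called features gave none. Features, lists and rules were chosen with earlier results of these data known. A few pairs that met these rules are not reported here.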

Additional observations from a re-analysis of the deposited data

Results flagged for a closer look

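Of 41 groups of library values tested among the called and named features, 9 had 1 library apart from the others by Dixon's criterion. Chance meets it in about 1 in 20 groups of continuous values, a rate that need not hold for so few whole reads, where 1 read can be enough. In the STAT5ca libraries of nc_inter_c13_24723, beside Mrps36, the highest value was 4.12 RPKM and the next 1.27 RPKM, on 36 reads in all. In those of nc_inter_c4_3309, beside Ambp, the highest was 0.254 RPKM and the next 0.166 RPKM, on 27 reads. In those of nc_inter_c7_43795, beside Epp13, the highest was 0.954 RPKM and the next 0.211 RPKM, on 11 reads. In those of nc_inter_c3_36484, beside H4c14, the highest was 0.504 RPKM and the next 0.0724 RPKM, on 10 reads, and in those of nc_inter_c7_45618, beside Cyp2e1, the highest was 0.145 RPKM and the next 0.025 RPKM, on 9 reads.

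The remaining groups held 1 to 4 reads. In the STAT5ca libraries of nc_inter_c13_24684, beside H2bl1, 1 library was at 0.49 RPKM with 3 reads and the other libraries were at 0, and in those of nc_inter_cx_49486, beside Mid1ip1, the lowest library was at 0 and the next at 0.202 RPKM, a difference of 1 read. In the Control libraries of nc_inter_c6_42054, beside Trim24, 1 library was at 0.106 RPKM with 1 read, and in those of nc_inter_c5_4469, beside Gbp10, 1 library was at 0.129 RPKM with 2 reads, with the other libraries at 0.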

How the results depend on the processing

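No paired analysis was possible because the table holds 1 value per group and the recovered libraries carry no replicate number. At an adjusted p under 0.01 there were 106 lower features, 40 higher and 16 lower ones with a neighbour called the same way. With a minimum fold of 2, 15 lower features had such a neighbour. Upper bounds of the unadjusted p were rebuilt from the adjusted p and adjusted again over features of at least 0.1 RPKM. With these, 266 features were lower, 49 of them with their neighbour. Within 1 kb, 86 were higher, 102 lower and 32 higher with their neighbour. With any named gene within 100 kb, an alternative chosen after seeing the data, 56 lower features had a lower gene. The median log2 level difference in STAT5ca and Control was -6.54 and -6.37 with a pseudocount of 0.01 RPKM, -2.47 and -2.31 with 1 RPKM, -4.65 and -4.43 over pairs of at least 0.1 RPKM, -5.19 and -5.01 against the most abundant gene within 5 kb, and -5.03 and -4.84 without overlapping features. Spearman's rho was 0.479 at 1 RPKM or more. Leaving out each library in turn, the features without overlap numbered 62 to 93 higher and 98 to 129 lower, which a smaller number of libraries raises by construction. Of 67 named called features, 18 did not pass at 0.01 and 4 had a fold under 2; 0 changed direction. Of 12456 features under 0.1 RPKM, 30 were called higher and 19 lower.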

Other observations

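Some pairs outside the lists, picked out after their values were seen, involve genes a reader of liver biology would know. Urad, a gene of urate breakdown, was at 18.2 RPKM in STAT5ca livers and 7.71 RPKM in Control livers, and nc_inter_c5_41523, 785 bases downstream, was at 16.2 RPKM in STAT5ca livers and 4.10 RPKM in Control livers, close to its gene's level in STAT5ca livers. Foxa2, a liver forkhead factor gene, was at 45 RPKM in STAT5ca livers and 27.7 RPKM in Control livers. Its upstream feature nc_inter_c2_34549 was at 1.34 RPKM in STAT5ca livers and 0.464 RPKM in Control livers and was called, while nc_inter_c2_1828, 2469 bases downstream of the same gene, was at 5.55 RPKM in STAT5ca livers and 5.39 RPKM in Control livers and was not.

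Among pairs that fell, Derl3, a gene of protein degradation at the endoplasmic reticulum, was at 2.10 RPKM in STAT5ca livers and 34.1 RPKM in Control livers, with nc_inter_c10_9020 at 0.0109 RPKM in STAT5ca livers and 0.300 RPKM in Control livers. Herpud1, a gene of the same degradation machinery, was at 55.4 RPKM in STAT5ca livers and 142 RPKM in Control livers, with nc_inter_c8_46996 at 0.315 RPKM in STAT5ca livers and 0.943 RPKM in Control livers.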
